A study of Mus musculus with 12 samples.

Results

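The respiratory chain and ATP synthase were followed here through 106 protein-coding genes, chosen by symbol from 48709 gene identifiers counted in 12 RNA-seq libraries of mouse hypothalamic cells. The symbol rule took the mitochondrially encoded subunits (mt-Nd, mt-Co, mt-Cytb and mt-Atp) and the nuclear families Nduf (a, b, c, s and v), Sdh, Uqcr, Cox (families 4 to 8) and Atp5. It used no measured value. It gave 13 mitochondrially encoded and 93 nuclear-encoded genes, of which 96 in all are structural subunits and 10 are assembly or regulatory factors (Ndufaf genes, Atp5s and Cox7a2l). By enzyme, the mitochondrial genes comprised 7 genes of complex I, 1 of complex III, 3 of complex IV and 2 of complex V. The nuclear subunits comprised 36 genes of complex I, 4 of complex II, 8 of complex III, 19 of complex IV and 16 of complex V. The annotation holds 107 protein-coding genes that match the rule, and the 1 not counted is a second identifier named Atp5o.

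The chain is built from 2 genomes. Complexes I to IV pass electrons from NADH and succinate to oxygen and, except for complex II, pump protons across the inner mitochondrial membrane. Complex V, the ATP synthase, uses the returning protons to make ATP. Mitochondrial DNA encodes core subunits of complexes I, III, IV and V, and its genes are transcribed as long polycistronic RNAs that are cut at transfer RNAs. All other subunits, and the whole of complex II, are read from nuclear genes, translated in the cytosol and imported, so both sets must be supplied for a complete enzyme. Neurons and glia differ in how far they rely on this route for ATP.

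The cells came from C57BL/6 embryonic hypothalamus at day 18, were grown as floating neurospheres for a week, and had basic fibroblast growth factor at 10 ng/ml from 24 hours after plating. A reporter virus at a multiplicity of infection of 10 was added before plating: an adeno-associated virus with mCherry, meant to mark hypocretin (Hcrt) cells, or a lentivirus with EGFP, meant to mark melanin-concentrating hormone (MCH, gene Pmch) cells. Sorting gave 4 groups of 3 libraries, a positive and a negative group for mCherry and likewise for EGFP. Negative cells had received the same virus as the positive cells of their sort. The promoters driving the reporters are not given in the sources used here. SMART-Seq v4 cDNA was started from 0.8 ng of RNA in the mCherry sort and 2 ng in the EGFP sort, with 11 PCR cycles in both. Virus, RNA input and intended cell type differ together between the sorts and cannot be told apart.

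Libraries held 16.3 to 32.9 megareads in genes. Hcrt stood at 0.0949 to 0.426 CPM (counts per megaread in genes) in mCherry-positive and 0.0329 to 0.230 CPM in mCherry-negative libraries, which overlap. Pmch stood at 16.3 to 17.8 CPM in EGFP-positive and 4.01 to 5.12 CPM in EGFP-negative libraries, which do not. Summed levels of 7 astrocyte markers were 4671 to 19372 CPM over the 12 libraries and those of 8 neuronal markers 747 to 1898 CPM, so transcripts of glia were present in every group. In bulk RNA of this kind, fewer cells of a type and less RNA per cell cannot be told apart. The mCherry-negative replicate 3 and the EGFP-positive replicate 1 stood apart by the highest nuclear respiratory chain share of their groups. The first also had 7839 CPM over 76 genes of the cytosolic ribosome, against 3996 and 3999 CPM in the other mCherry-negative libraries. Results that rest on these libraries are given with and without them.

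Reads were spread very unevenly over the mitochondrial genes. mt-Co2, mt-Co3, mt-Nd4l and mt-Atp8 had 0 reads in each of the 12 libraries, and mt-Atp6 had 1 read in all. A count of 0 allows a level of up to 3 counts, or 0.0912 to 0.184 CPM depending on the library; such limits cover counting error only. The neighbouring mt-Nd3 had 817 reads over the 12 libraries, while mt-Co1 had 1156284 and mt-Cytb 924956. Nuclear chromosomes carry copies of stretches of mitochondrial DNA. A read that matches a copy as well as the original has no unique place, and HTSeq counts such reads in an entry of their own and not in a gene. That entry held 32.9 to 46.9 reads for every 100 gene reads.

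The shared sequence was measured as the share of all 50-base stretches of a gene's transcript that also occur in a transcript of another annotated gene. It was 100% for mt-Co2, 99.9% for mt-Co3, 99.5% for mt-Atp6, 98.8% for mt-Nd4l and 98.0% for mt-Nd3. For all 5 the main partner was an unprocessed pseudogene within 1 stretch of chromosome 1, such as Gm28661 (chr1:24614885-24615565, minus strand) for mt-Co2 and Gm28437 (chr1:24613189-24613971, minus strand) for mt-Co3. The share was 62.2% for mt-Nd4, 51.1% for mt-Co1, 8.19% for mt-Nd2 and 7.61% for mt-Nd5. It was 0 for mt-Nd1, mt-Nd6, mt-Cytb and mt-Atp8. The last had no reads, but copies outside annotated genes could not be looked for. On mitochondrial DNA mt-Atp8 lies between mt-Co2 and mt-Atp6 and overlaps the start of the latter. With 100-base stretches the order was alike, with 30.8% for mt-Co1 and 60.8% for mt-Nd4. Read length is not given in the sources used here. Of 14 copies looked up, 13 had a row in the files, and these took 664 reads over all libraries against 3316502 for the mitochondrial genes. Whether shared sequence accounts for the missing reads was not tested.

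Windows of 60 bases from the middle of the transcripts show how alike genes and copies are (GENCODE M21 transcripts on GRCm38, 5′ to 3′; capitals mark bases that differ between gene and copy). Of the 13 windows, 7 were the same in the copy and 6 held mismatches. The 7 do not all belong to genes without reads. Of these, 4 are from genes with at most 1 read: mt-Co2 at chrM:7325-7384 with Gm13341 at chr2:22587591-22587650, mt-Co3 at chrM:8969-9028 with Gm28437 at chr1:24613550-24613609, mt-Atp6 at chrM:8237-8296 with Gm10925 at chr1:24614282-24614341, and mt-Nd4l at chrM:9995-10054 with Gm10222 at chr1:24612523-24612582. The genes lie on the plus strand and these copies on the minus strand.
mt-Co2 and Gm13341: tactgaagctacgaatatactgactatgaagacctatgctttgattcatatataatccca
mt-Co3 and Gm28437: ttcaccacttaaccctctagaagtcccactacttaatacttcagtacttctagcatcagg
mt-Atp6 and Gm10925: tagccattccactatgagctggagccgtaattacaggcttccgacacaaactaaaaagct
mt-Nd4l and Gm10222: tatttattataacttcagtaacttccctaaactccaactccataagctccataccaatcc

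The windows of mt-Cytb, mt-Nd5, mt-Nd6, mt-Nd2 and mt-Nd1, all genes with reads, differ from their closest annotated match. Mismatches numbered 9 for mt-Nd2 (Gm48142) and 30 for mt-Nd1 (Gm8310). The other 3 windows are shown. mt-Cytb at chrM:14687-14746 (plus strand) has 4 mismatches to Gm11410 at chr4:80004531-80004590 (plus strand). mt-Nd5 at chrM:12624-12683 (plus strand) has 5 mismatches to Gm4076 at chr13:85127278-85127337 (minus strand). mt-Nd6 at chrM:13782-13841, the only protein gene on the minus strand of mitochondrial DNA, has 8 mismatches to Gm11408 at chr4:80003626-80003685 (minus strand).
mt-Cytb: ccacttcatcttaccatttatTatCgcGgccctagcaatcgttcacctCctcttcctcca
Gm11410: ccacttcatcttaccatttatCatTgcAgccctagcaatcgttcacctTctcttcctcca
mt-Nd5: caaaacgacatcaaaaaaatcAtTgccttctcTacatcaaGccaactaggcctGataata
Gm4076: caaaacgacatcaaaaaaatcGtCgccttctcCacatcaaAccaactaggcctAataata
mt-Nd6: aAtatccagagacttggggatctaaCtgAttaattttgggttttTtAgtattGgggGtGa
Gm11408: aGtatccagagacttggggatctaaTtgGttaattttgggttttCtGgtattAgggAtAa

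The other 3 windows without a mismatch are from genes with reads. In mt-Co1 the window at chrM:6070-6129 (plus strand) is the same in Gm13340 at chr2:22588846-22588905 (minus strand), although the gene as a whole held more reads than any other mitochondrial member. In mt-Nd4, with 222748 reads, the window at chrM:10826-10885 is the same in Gm28439 at chr1:24611692-24611751. In mt-Nd3, with 817 reads, the window at chrM:9603-9662 is the same in Gm28438 at chr1:24612916-24612975. Both copies lie on the minus strand. Conversely, mt-Atp8, with 0 reads, had 29 mismatches to its closest annotated match. Only annotated transcripts were searched, so an unannotated copy of mt-Atp8 could not be looked for. By annotated copies alone, the windows do not sort the genes by their reads.
mt-Co1 and Gm13340: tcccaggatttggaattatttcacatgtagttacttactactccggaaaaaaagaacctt
mt-Nd4 and Gm28439: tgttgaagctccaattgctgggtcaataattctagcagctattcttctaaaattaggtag
mt-Nd3 and Gm28438: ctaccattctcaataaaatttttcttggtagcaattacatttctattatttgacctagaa

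**Figure D1:**
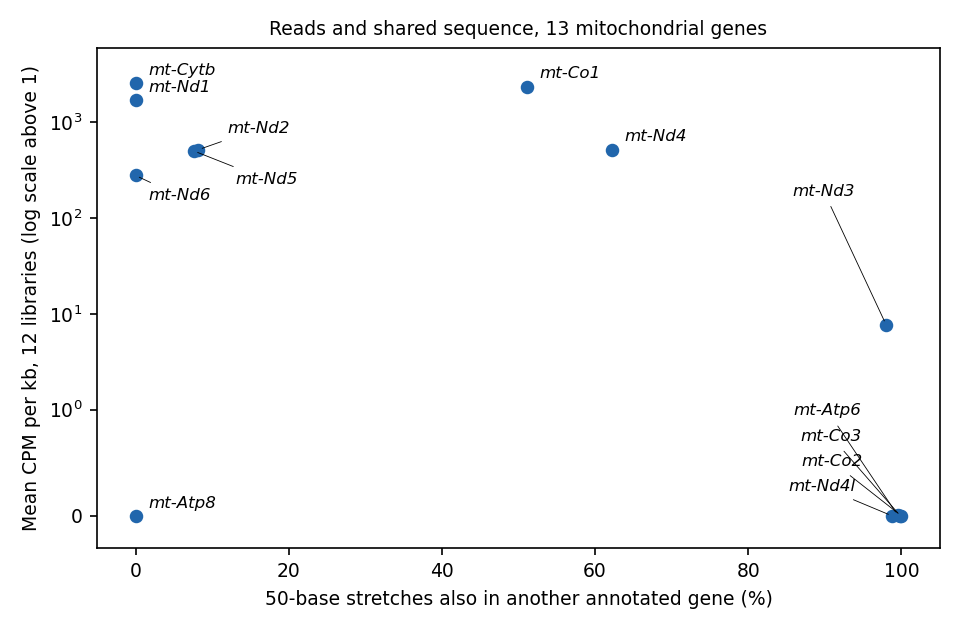
Mean level of each of the 13 mitochondrially encoded genes over 12 libraries (CPM per kb of exon, log scale above 1) against the share of its 50-base stretches that also occur in another annotated gene (percent). The 5 genes at 98.0% or more lie at 7.69 CPM per kb or lower, and mt-Atp8 lies at 0 with no shared stretch.

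Per length, 3 mitochondrial genes stood at the top of the list by counted reads. As means of 12 libraries in CPM per kb of exon, mt-Cytb of complex III was at 2561, mt-Co1, the catalytic subunit of complex IV, at 2344 and mt-Nd1 of complex I at 1701. The next were nuclear: Cox6a1 at 686, Cox6b1 at 566 and Atp5b, the catalytic beta subunit of ATP synthase, at 542. mt-Nd4, mt-Nd2 and mt-Nd5 were at 517, 517 and 502 CPM per kb. mt-Nd6, at 278, lay below nuclear genes such as Ndufc2 (430) and Cox8a (417), and mt-Nd3 was at 7.69 CPM per kb. Median levels of nuclear subunits were 105 CPM per kb in complex I, 162 in complex II, 177 in complex III, 47.4 in complex IV and 135 in complex V, and 20.8 for the assembly or regulatory factors. Exon lengths here join all annotated transcripts of a gene, retained introns included, so these levels are approximate. Lengths were not corrected for shared sequence, which was 51.1% in mt-Co1 and 62.2% in mt-Nd4. Nuclear members also share sequence with other genes, though less: 41 of 93 shared no 50-base stretch and 20 shared at least 10%. The low levels of Cox7c (20.4 CPM per kb, 22.1% shared) and Atp5g2 (0.722 CPM per kb, 38.3% shared) stand beside such sharing, whose part in them was not tested.

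The 13 mitochondrial genes together took 1.30%, 1.54% and 1.06% of gene reads in the mCherry-positive libraries (replicates 1 to 3) and 0.953%, 0.805% and 0.836% in the mCherry-negative libraries. The order was the opposite in the EGFP sort, with 0.766%, 0.872% and 0.780% in positive and 1.36%, 1.17% and 1.16% in negative libraries. Positive and negative libraries did not overlap in either sort. The 93 nuclear genes took 1.64%, 1.82% and 1.57% in mCherry-positive and 1.70%, 1.98% and 2.53% in mCherry-negative libraries. They took 2.33%, 2.01% and 1.66% in EGFP-positive and 2.31%, 2.08% and 2.04% in EGFP-negative libraries. The nuclear shares overlapped in both sorts. The ratio of mitochondrial to nuclear reads was 0.772 ± 0.0851 (SD, n = 3) in mCherry-positive, 0.433 ± 0.118 in mCherry-negative, 0.411 ± 0.0736 in EGFP-positive libraries and 0.572 ± 0.0140 in EGFP-negative libraries. No test was made of these sums, which lean on the few genes with most reads.

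**Figure D2:**
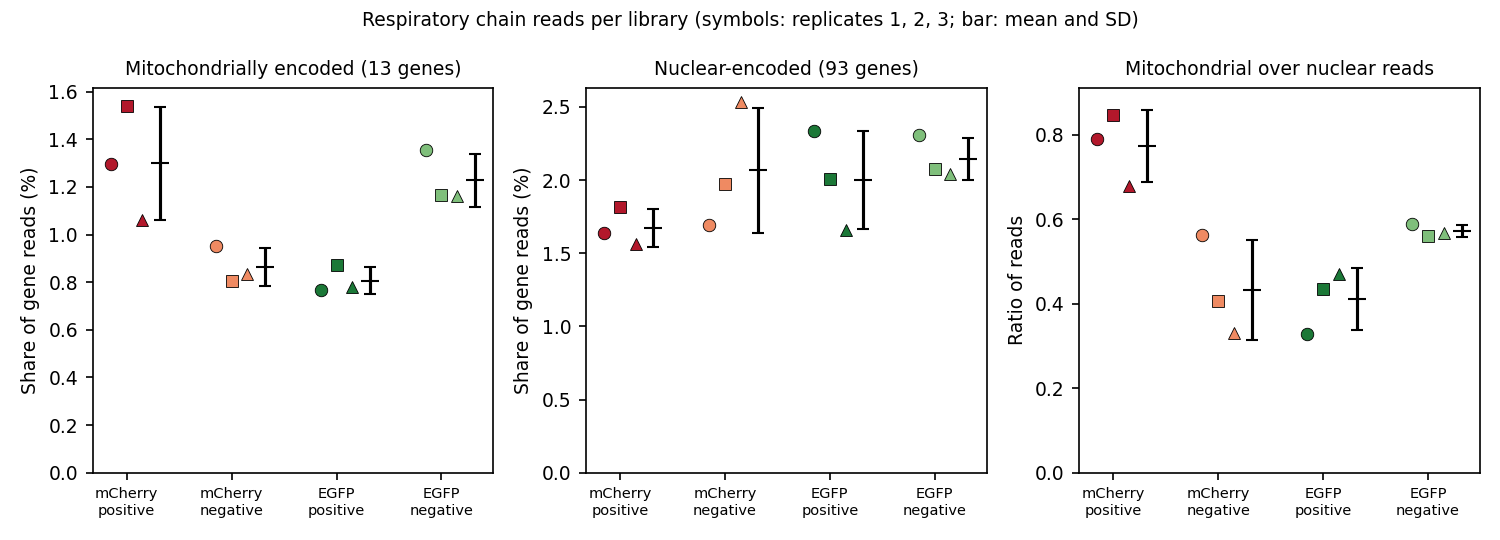
Share of gene reads (percent) in the 13 mitochondrially encoded and the 93 nuclear-encoded genes, and their ratio, for each of the 12 libraries, with symbols for replicates and bars for mean and SD (n = 3). The mitochondrial share lies at 1.06% to 1.54% in mCherry-positive against 0.805% to 0.953% in mCherry-negative libraries, and at 0.766% to 0.872% in EGFP-positive against 1.16% to 1.36% in EGFP-negative libraries.

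For gene-wise tests, 8 mitochondrial and 91 nuclear members passed the filter on low counts in each comparison. The 7 left out were the 5 mitochondrial genes with at most 1 read and the testis isoforms Cox7b2 (37 reads in all) and Cox8c (5 reads). Fold changes come from edgeR on TMM-scaled counts, per-library levels are plain CPM, and a gene is called at a Benjamini-Hochberg adjusted p under 0.05 over all genes tested. The labels do not say whether the 3 replicates are separate cultures, so p-values measure only how far these samples spread, and that spread may be technical.

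In EGFP-positive cells mitochondrial messages of the respiratory chain fell, while no nuclear member was called. Of 8 mitochondrial genes tested, 7 were called lower than in EGFP-negative cells; of all 16326 genes tested, 7.07% were called lower. They belong to complexes I, III and IV, and log2 fold changes of all 8 lay between -0.67 and -0.36 with a median of -0.57, against -0.01 over all genes. Of 91 nuclear members, 0 were called in either direction by edgeR, where 8.99% of all genes were called higher, and 0 had an unadjusted p under 0.05, where 30.5% of all genes did. DESeq2 and limma-voom also called 0 nuclear members. The nuclear median was 0.01, with 47 values above and 44 below 0.

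mt-Cytb, the cytochrome b that carries electrons within complex III, was at 2038, 2470 and 2294 CPM in EGFP-positive and at 4105, 3546 and 3347 CPM in EGFP-negative libraries. Each positive library lay below each negative one. This gave a log2 fold change of -0.58 ± 0.11 (SE), and edgeR's quasi-likelihood test gave an adjusted p of 0.00652. mt-Nd1, a membrane subunit of complex I near its quinone site, was at 1381, 1383 and 1230 CPM in positive and at 2283, 1986 and 2018 CPM in negative libraries. The groups lay well apart, and the log2 fold change was -0.55 ± 0.09 (SE, edgeR adjusted p = 0.00364). Neither gene shares a 50-base stretch with another annotated gene.

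mt-Nd4, a proton-pumping subunit of complex I, was at 564, 599 and 445 CPM in EGFP-positive and at 1110, 854 and 792 CPM in EGFP-negative libraries. It had the lowest fold change of the mitochondrial genes, -0.67 ± 0.15 (SE, edgeR adjusted p = 0.0154), with no overlap. mt-Nd2 was at 457, 489 and 365 CPM against 837, 654 and 659 CPM, and its log2 fold change was -0.61 ± 0.14 (SE, edgeR adjusted p = 0.0161). mt-Nd5 was at 602, 716 and 652 CPM against 1063, 900 and 842 CPM, and its log2 fold change was -0.40 ± 0.11 (SE, edgeR adjusted p = 0.0428). These 3 antiporter-like subunits of complex I were each lower in every EGFP-positive library than in any EGFP-negative library.

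mt-Nd6, read from the other strand, was at 123, 114 and 88.4 CPM in EGFP-positive and at 218, 156 and 161 CPM in EGFP-negative libraries. Its log2 fold change of -0.61 ± 0.16 (SE, edgeR adjusted p = 0.0328) lies among those of the plus-strand genes. mt-Co1 was at 2491, 2941 and 2725 CPM against 3945, 3551 and 3788 CPM, the smallest change of the 8, at -0.36 ± 0.09 (SE, edgeR adjusted p = 0.0227). mt-Nd3, with few reads, was at 2.29, 3.35 and 2.36 CPM against 4.05, 3.41 and 3.93 CPM. It was not called (log2 fold change -0.39 ± 0.27 (SE), edgeR adjusted p = 0.358), although here too every positive library was below every negative one in CPM. On the TMM scale 7 of the 8 genes did not overlap, all but mt-Nd3, where 17.9% of all genes had all 3 positive libraries lower.

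**Figure D3:**
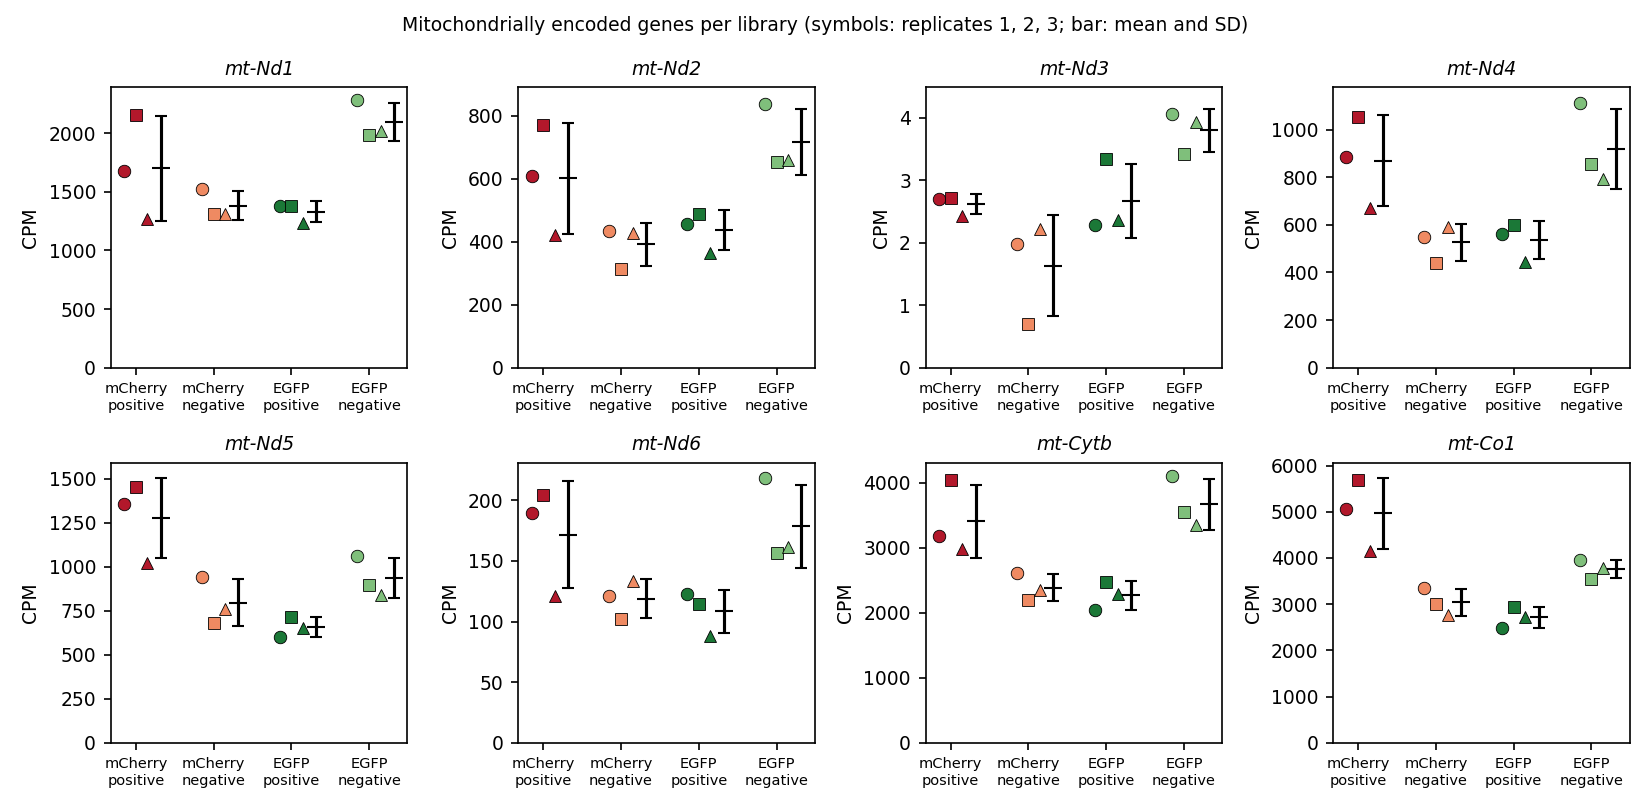
Level of the 8 mitochondrially encoded genes with more than 1 read in each of the 12 libraries (CPM, axes from 0), with symbols for replicates and bars for mean and SD (n = 3). In the EGFP sort all positive libraries of the 7 called genes lie below all negative ones, for example mt-Nd1 at 1230 to 1383 CPM against 1986 to 2283 CPM.

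Leaving out any of 5 of the 6 libraries lowered the number of EGFP calls. Without EGFP-negative replicate 1, 2 genes were called lower, without replicate 2 they were 3 and without replicate 3 they were 4. Of all genes 543 of 16890, 493 of 16877 and 618 of 16915 were called lower in these fits, against 1154 of 16326 with all libraries. Leaving out EGFP-positive replicate 2 or 3 left 5, where 480 of all 16986 and 1109 of all 17020 genes were called lower. mt-Nd1 and mt-Cytb were called in all 6 fits that left out 1 library, over which the median of the 8 genes lay between -0.62 and -0.46. Without the EGFP-positive replicate 1, the library with the highest nuclear share of its group, 7 mitochondrial and 7 nuclear members were called lower. Of nuclear members 2, Sdha and Ndufs1, were called higher. In that fit 2360 of all 16976 genes were called lower and 2884 higher. The nuclear median was then -0.13. With the spread taken from all 12 samples, in which the mCherry libraries vary more, 1 member was called lower, mt-Cytb. In that fit 343 of all 18063 genes were called lower. With library totals in place of TMM the median over all genes shifted from -0.01 to -0.12, with -0.67 for the mitochondrial and -0.10 for the nuclear members, and the same 7 genes were called.

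Other RNA moved in the same EGFP libraries. Oligodendrocyte markers summed to 1112 to 1131 CPM in EGFP-positive and 3634 to 3774 CPM in EGFP-negative libraries (6 of 7 called lower). Microglial markers summed to 3.01 to 4.35 against 27.4 to 43.9 CPM (6 of 6 lower) and neuronal markers to 747 to 1011 against 1188 to 1254 CPM (5 of 8 lower). Oligodendrocyte precursor markers summed to 922 to 978 against 2810 to 3116 CPM (5 of 5 lower) and pituitary markers to 36 to 63.4 against 355 to 464 CPM (3 of 6 lower). Astrocyte markers summed to 15603 to 19372 against 8723 to 9048 CPM (6 of 7 higher and 1 lower). Of 7 RNAs retained in the nucleus, 4 were called lower in EGFP-positive cells, with a median log2 fold change of -0.74. Their summed levels overlapped, at 1183 to 3485 against 1680 to 2080 CPM. This overlap rested on EGFP-positive replicate 1, at 3485 CPM. EGFP-positive replicates 2 and 3, at 1499 and 1183 CPM, lay below every negative library. Malat1, the most abundant of these RNAs, was not called (0.36 ± 0.35 (SE), edgeR adjusted p = 0.536). In the mCherry sort 0 of the 7 were called by edgeR and 3 had an unadjusted p under 0.05, with a median of 0.50. No oligodendrocyte, microglial, neuronal or astrocyte marker was at 0 throughout a group; of 5 endothelial markers, Cdh5 and Tek were at 0 in the EGFP-positive group. Reads outside annotated features numbered 5.51 to 6.93 for every 100 gene reads in EGFP-positive and 8.58 to 9.95 in EGFP-negative libraries. The part of cell makeup, of RNA quality and of nuclear RNA in the lower mitochondrial levels was not tested.

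Among nuclear subunits in the EGFP sort, complex II, which has no mitochondrially encoded part, had fold changes of 0.03 to 0.27 in its 4 genes. Sdha, its flavoprotein, was at 559, 699 and 743 CPM in EGFP-positive and at 555, 608 and 634 CPM in EGFP-negative libraries. These overlap, and the log2 fold change of 0.27 ± 0.12 (SE) was not called (edgeR adjusted p = 0.185). Sdhc and Sdhd had log2 fold changes of 0.19 and 0.12, and Sdhb of 0.03, which turned to -0.08 with library totals in place of TMM. The 8 nuclear subunits of complex III lay between -0.08 and 0.19. Of these, Uqcrc2, a core subunit, was at 218, 219 and 219 CPM against 207, 215 and 198 CPM (log2 fold change 0.19 ± 0.09 (SE), edgeR adjusted p = 0.209). It was higher in every positive library, as were Uqcrc1 and Cox6a2 on the TMM scale. These are 3 of 91 nuclear members, where 17.8% of all genes had all 3 positive libraries higher.

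The median fold change was 0.03 in the 36 nuclear genes of complex I, -0.08 in the 17 tested of complex IV and -0.01 in the 16 of complex V. The nuclear genes of lowest p in the downward direction were the complex I assembly factors Ndufaf2 and Ndufaf5, with log2 fold changes of -0.34 ± 0.19 and -0.31 ± 0.18 (SE). Cox7b, a small subunit of complex IV, stood at -0.23 ± 0.16 and Ndufa4l2, a relative of the complex IV subunit Ndufa4, at -0.25 ± 0.20 (SE). None of the 4 was called (edgeR adjusted p between 0.259 and 0.447). Of the transcript of Ndufaf2, 64.1% of 50-base stretches also lie in a long noncoding RNA annotated at the same place.

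In mCherry-positive cells the mitochondrial values lay in the opposite direction, but no member was called by edgeR. Of 8 mitochondrial genes, all had a positive log2 fold change, from 0.28 to 0.71 with a median of 0.64, against 0.02 over all 17369 genes tested. By edgeR 0 of 8 were called, where 0.541% of all genes were called higher and 0.656% lower. An unadjusted p under 0.05 was found in 5 of 8, where 18.6% of all genes had one and 9.75% had one upward, and the lowest adjusted p was 0.105. For 5 of the 8 the groups did not overlap, each with all positive libraries higher, where 25.6% of all genes did not overlap in either direction. DESeq2 called 3 of the 8 higher (mt-Co1, mt-Nd4 and mt-Nd5), where 885 of the 14646 genes with an adjusted p were. limma-voom called 0 of the 8. With the spread taken from all 12 samples, 4 were called higher, mt-Cytb being the other, where 883 of all 18063 genes were.

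mt-Co1 was at 5049, 5694 and 4144 CPM in mCherry-positive and at 3354, 3002 and 2776 CPM in mCherry-negative libraries. The groups do not overlap, and the log2 fold change was 0.69 ± 0.19 (SE, edgeR adjusted p = 0.105). mt-Nd4 was at 884, 1054 and 671 CPM against 549, 442 and 593 CPM, at 0.71 ± 0.22 (SE, edgeR adjusted p = 0.134). mt-Nd5 was at 1355, 1453 and 1020 CPM against 942, 680 and 763 CPM, at 0.67 ± 0.21 (SE, edgeR adjusted p = 0.139). In each of these the positive replicate 3 was the lowest of its group and still above every negative library.

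mt-Cytb was at 3185, 4048 and 2982 CPM in mCherry-positive and at 2606, 2194 and 2348 CPM in mCherry-negative libraries (log2 fold change 0.50 ± 0.18 (SE), edgeR adjusted p = 0.190). mt-Nd1 was at 1680, 2157 and 1266 CPM against 1522, 1312 and 1315 CPM, and its groups overlap (0.28 ± 0.22 (SE), edgeR adjusted p = 0.524). mt-Nd2 (0.60 ± 0.25), mt-Nd6 (0.52 ± 0.23) and mt-Nd3 (0.67 ± 0.58, all SE) were likewise not called. Positive replicate 3 lay inside the range of the negative libraries for mt-Nd2 (421 CPM) and mt-Nd6 (121 CPM) and below it for mt-Nd1. The median of the 8 genes was 0.47 to 0.79 when 1 library was left out.

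The nuclear members leaned the other way in the mCherry sort, and single libraries weighed on this. Of 91 nuclear members 0 were called by edgeR, DESeq2 or limma-voom, 83 had a negative log2 fold change and the median was -0.34. An unadjusted p under 0.05 was found in 7, where 18.6% of all genes had one. Of the 7, 2 were higher (9.75% of all genes) and 5 lower (8.87% of all genes). In 6 nuclear members all positive libraries were lower than all negative ones, where 13.7% of all genes were. The count of 7 was 33 without mCherry-negative replicate 1, where 3673 of all 18239 genes had such a p. It was 1 without positive replicate 3, where 2439 of all 17923 genes had one, and 2 to 5 without any other library. With the spread of all 12 samples it was 21, where 4773 of all 18063 genes had one. Medians were -0.34 in complex I, -0.22 in complex II, -0.32 in complex III, -0.29 in complex IV and -0.37 in complex V. Without mCherry-negative replicate 3 the median over the nuclear members was -0.11, and without negative replicate 1 it was -0.47. The mCherry-negative replicate 3 had 46.9 reads of no unique place for every 100 gene reads, against 37.1 and 39.5 in the other mCherry-negative libraries. With the spread taken from all 12 samples, 2 of 91 nuclear members were called lower, Atp5b and Atp5a1, where 829 of all 18063 genes were.

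Of nuclear members with negative values, Atp5b was at 1915, 1991 and 1722 CPM in mCherry-positive and at 2342, 2398 and 2535 CPM in mCherry-negative libraries. The groups do not overlap, and the log2 fold change of -0.39 ± 0.16 (SE) had an edgeR adjusted p of 0.243. Atp5o, a stalk subunit of ATP synthase, was at 283, 306 and 261 CPM against 297, 395 and 494 CPM, with an overlap (-0.50 ± 0.21 (SE), edgeR adjusted p = 0.243). Ndufb8 of complex I (-0.54 ± 0.23) and Sdhb, the iron-sulfur subunit of complex II (-0.44 ± 0.19, both SE), had adjusted p of 0.254 and 0.256 by edgeR. In Sdhb the values were 313, 367 and 313 CPM against 356, 467 and 498 CPM. Sdha differed from it, at 702, 614 and 604 CPM against 635, 721 and 546 CPM and a log2 fold change of -0.01 ± 0.18 (SE), which turned to 0.01 with library totals or DESeq2's size factors. Whether the changes of Sdha and Sdhb differ was not tested.

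The effects of both sorts were then compared in 1 fit of all 12 samples, as mCherry effect minus EGFP effect. Of 8 mitochondrial genes, 4 had a called difference, all positive; of all 18063 genes tested, 0.886% did. An unadjusted p under 0.05 was found in 7 of the 8, where 8.41% of all genes had one in that direction. The called genes were mt-Nd4 with a difference of 1.35 ± 0.28 (SE, edgeR adjusted p = 0.0304), mt-Cytb with 1.05 ± 0.20 (0.0272), mt-Co1 with 1.02 ± 0.20 (0.0272) and mt-Nd5 with 1.04 ± 0.24 (0.0493). limma-voom and the fit with a replicate block called 3, without mt-Nd5 (adjusted p = 0.0620 by limma-voom and 0.0557 by edgeR with the block). mt-Nd2 (1.18 ± 0.30), mt-Nd6 (1.10 ± 0.31), mt-Nd1 (0.80 ± 0.24) and mt-Nd3 (1.04 ± 0.59) were not called. The median of the 8 was 1.05, against -0.03 over all genes. Leaving out mCherry-positive replicate 3 gave 7 called genes, where 118 of all 18614 genes had a called positive difference. Leaving out either the positive or the negative replicate 2 of the mCherry sort, the EGFP-positive replicate 2 or any EGFP-negative library gave 0. There the count over all genes was between 22 of 18823 and 107 of 18683, against 160 of 18063 with all libraries. Leaving out EGFP-positive replicate 1 or 3 gave 1, mt-Cytb, where 91 of all 18842 and 76 of all 18864 genes were called positive. Over these fits the median of the 8 genes was 0.94 to 1.18. With library totals the median difference over all genes shifted from -0.03 to 0.13, and 5 mitochondrial genes were called.

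Markers of other cells moved with this difference. Of 7 oligodendrocyte markers 6 had a called positive difference, with a median of 2.12, and of 6 microglial markers 2, with a median of 4.66. Of 8 neuronal markers, 5 oligodendrocyte precursor markers and 7 RNAs retained in the nucleus 1 each was called positive, with medians of 0.61, 0.69 and 1.21. Of 7 astrocyte markers 1 was called negative, with a median of -0.02. Of 6 markers of dividing cells 3 were called negative, with a median of -1.25, and of 6 mural and fibroblast markers 1, with a median of 2.10. Of 6 pituitary, 4 ependymal and 2 tested endothelial markers 0 were called, with medians of 4.91, -0.06 and -0.78. Over all genes 0.886% were called positive and 0.559% negative. The part of these markers in the mitochondrial difference was not tested.

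Of 91 nuclear members 0 had a called difference by edgeR, DESeq2 or limma-voom, in either direction, where 0.559% of all genes had a negative one. An unadjusted p under 0.05 was found in 8, where 15.1% of all genes had one. Their median was -0.35, and -0.15 without mCherry-negative replicate 3 or -0.16 without EGFP-positive replicate 1. Lowest in p were Uqcrc1 (-0.58 ± 0.22), Atp5b (-0.38 ± 0.16), Atp5o (-0.68 ± 0.28) and Uqcrc2 (-0.46 ± 0.19, all SE), with edgeR adjusted p between 0.218 and 0.276. Ndufa4l2, known as a gene induced by low oxygen, was the highest in the other direction by p, at 0.88 ± 0.38 (SE, edgeR adjusted p = 0.289). It was at 12.4, 13.4 and 9.82 CPM in mCherry-positive, 4.87, 9.14 and 8.20 CPM in mCherry-negative, 22.5, 16.9 and 13.5 CPM in EGFP-positive and 25.4, 22.1 and 19.9 CPM in EGFP-negative libraries.

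**Figure D4:**
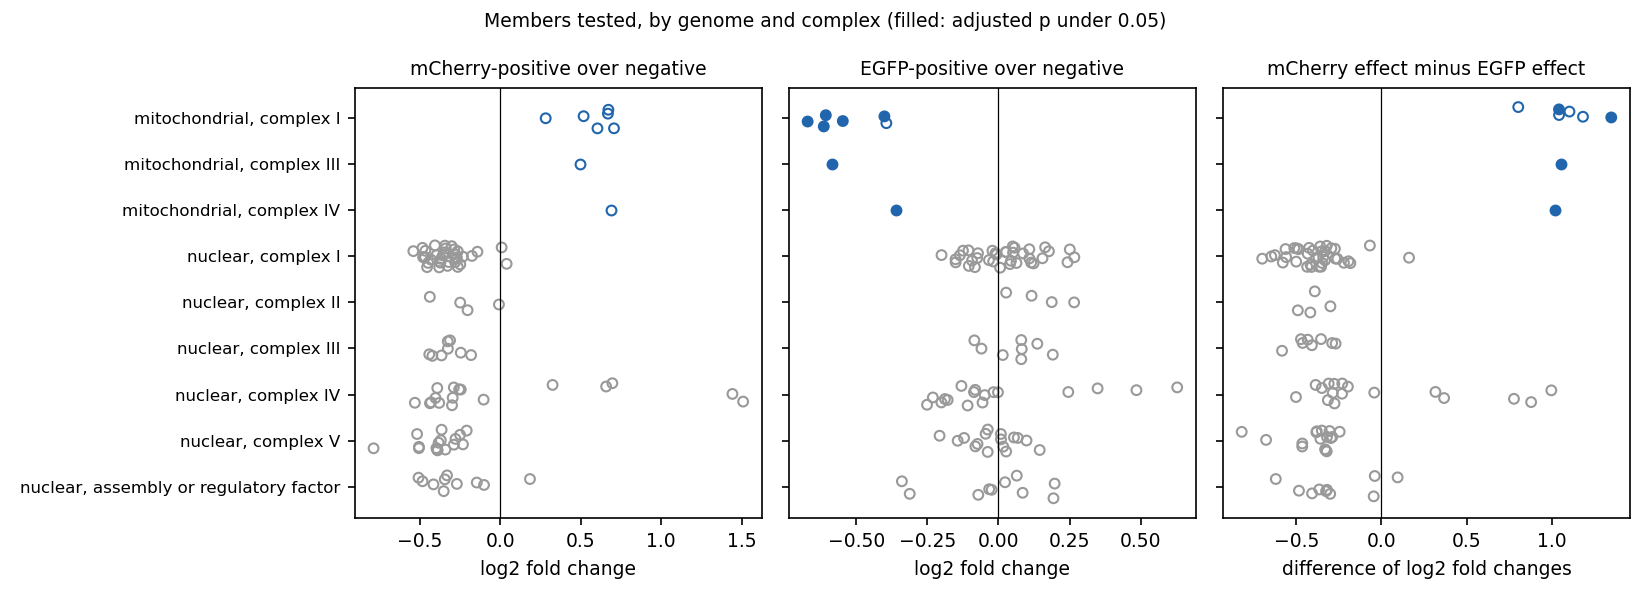
Log2 fold change of every tested member, by genome and complex, in both sorts and for their difference (each point a gene, filled where the edgeR adjusted p is under 0.05, blue for mitochondrially encoded, spread vertically only to separate points). The filled points are 7 mitochondrial genes in the EGFP sort, at -0.67 to -0.36, and 4 in the difference, at 1.02 to 1.35; no nuclear member is filled.

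Shares of single genes within the mitochondrial reads were compared without a test. mt-Co1 made up 38.3 ± 1.14% (SD, n = 3) of them in mCherry-positive, 35.2 ± 2.05% in mCherry-negative, 33.7 ± 1.20% in EGFP-positive libraries and 30.7 ± 1.78% in EGFP-negative libraries. mt-Nd1 made up 13 ± 1.05%, 16 ± 0.285%, 16.6 ± 1.29% and 17.1 ± 0.275% in the same order. mt-Cytb made up 26.3 ± 1.74%, 27.6 ± 0.458%, 28.1 ± 1.41% and 29.8 ± 0.883%. For mt-Nd1 the mCherry-positive range of 11.9% to 14% lay below the mCherry-negative range of 15.7% to 16.3%, while the EGFP groups overlapped. For mt-Co1 and mt-Cytb positive and negative libraries overlapped in both sorts. These shares add up over the genes of a library, so a higher share of mt-Co1 lowers the others.

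Complex IV has subunits with tissue isoforms, and in all libraries the common isoform stood far above the restricted one per length. Cox4i1 was at 334 CPM per kb as a mean of 12 libraries and Cox4i2, known from lung, at 1.81. Cox7a2 was at 236 and the muscle isoform Cox7a1 at 4.06, and Cox8a was at 417 and the muscle isoform Cox8b at 4.16. Cox6a1 was at 686 and the muscle isoform Cox6a2 at 5.29, and Cox6b1 was at 566 and the testis isoform Cox6b2 at 15.9. By edgeR none of the 10 genes was called in either sort, and an unadjusted p under 0.05 was found for Cox6a2 and Cox6b2, both in the mCherry sort.

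Cox6b2 was at 26.6, 29.0 and 31.4 CPM in mCherry-positive and at 13.1, 17.4 and 22.3 CPM in mCherry-negative libraries. It did not overlap there, with a log2 fold change of 0.70 ± 0.25 (SE, edgeR adjusted p = 0.181). Its EGFP values were 16.4, 12.8 and 9.96 CPM against 11.9, 11.1 and 9.94 CPM (0.35 ± 0.20 (SE), edgeR adjusted p = 0.291). Cox6a2 was at 4.66, 8.83 and 3.31 CPM in mCherry-positive and at 1.71, 3.01 and 1.34 CPM in mCherry-negative libraries (1.44 ± 0.54 (SE), edgeR adjusted p = 0.198). It too was higher in each positive library. Its EGFP values were 5.34, 3.68 and 3.04 CPM against 2.59, 3.18 and 2.52 CPM (0.63 ± 0.28 (SE), edgeR adjusted p = 0.169). Cox8b was at 2.78, 0.728 and 4.01 CPM in mCherry-positive and at 0.362, 0.583 and 1.66 CPM in mCherry-negative libraries, which overlap (1.51 ± 0.81 (SE), edgeR adjusted p = 0.350). The common isoforms Cox4i1, Cox6a1, Cox6b1, Cox7a2 and Cox8a had log2 fold changes of -0.44 to -0.25 in the mCherry sort and -0.18 to -0.0016 in the EGFP sort.

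**Figure D5:**
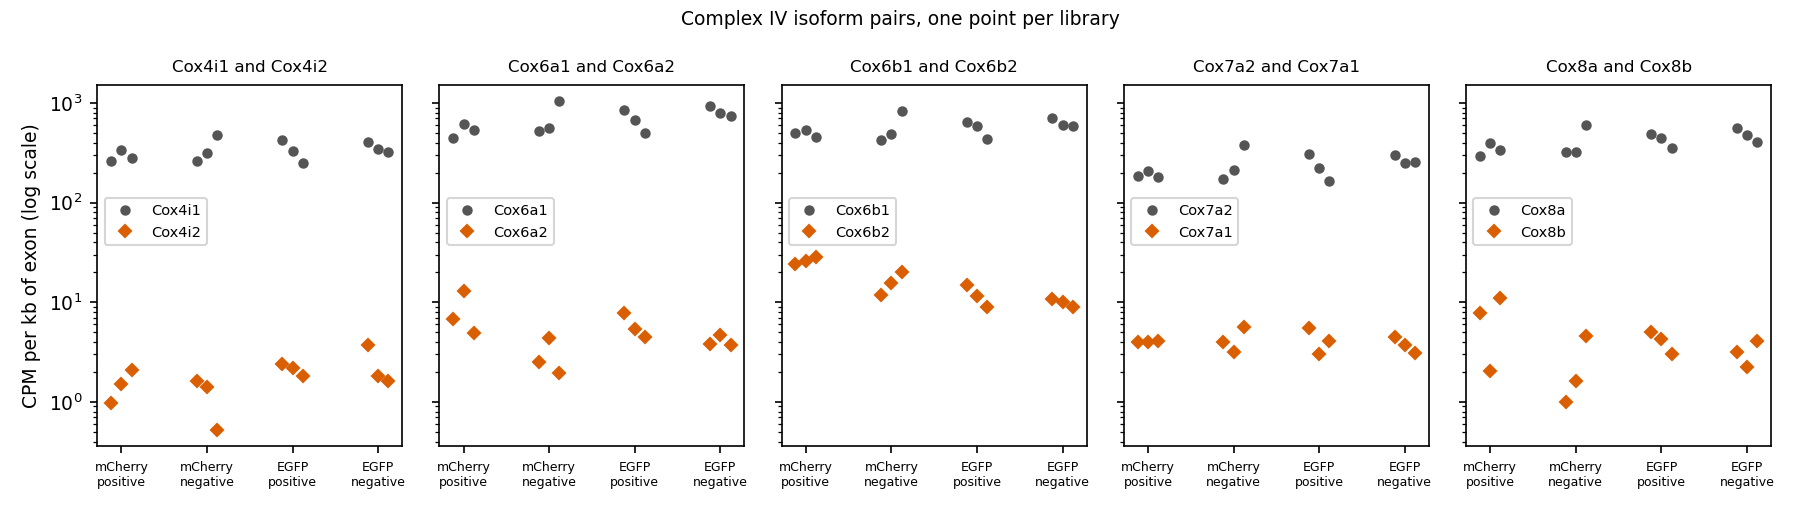
Level of 5 isoform pairs of complex IV in each of the 12 libraries (CPM per kb of exon, log axis; grey circles, common isoform; orange diamonds, restricted isoform; points within a group are replicates 1 to 3 from left to right). The common isoforms lie far above the restricted ones in every library, and Cox6b2 lies highest in the mCherry-positive libraries.

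Other genes of the mitochondrion were counted from lists. In the mCherry sort 0 of 255 tested genes from 10 lists of nuclear-encoded mitochondrial genes were called by edgeR, and 48 had an unadjusted p under 0.05. This is 18.8% of them, close to the 18.6% over all genes. By direction 44 were lower, or 17.3%, against 8.87% of all genes, and 4 were higher, or 1.57%, against 9.75%. Medians there were -0.42 in 77 tested proteins of the mitochondrial ribosome, -0.35 in 44 assembly factors, -0.36 in 23 import genes, -0.16 in 22 genes of mitochondrial DNA maintenance and transcription and 0.22 in 17 regulators of biogenesis. In the EGFP sort 0 of 77 genes of the mitochondrial ribosome, 0 of 44 assembly factors, 0 of 22 genes of mitochondrial DNA maintenance and transcription and 0 of 14 carrier and uncoupling genes were called. An unadjusted p under 0.05 was found in 4, 1, 3 and 3 of them, and medians were -0.02, 0.02, 0.05 and 0.02. Of all genes 16.1% were called in that sort and 30.5% had an unadjusted p under 0.05. In the difference 0 of the 255 genes were called by edgeR and 46, or 18%, had an unadjusted p under 0.05, against 15.1% of all genes. Of these 41 were negative, or 16.1% of the 255, against 6.74% of all genes, and 5 were positive, or 1.96%, against 8.41%.

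In the EGFP sort 12 of the 255 genes were called, or 4.71%, against 16.1% of all genes. Of these 10 were higher, or 3.92%, against 8.99% of all genes. Ppargc1a, a coactivator that drives mitochondrial biogenesis, rose by 0.79 ± 0.12 (log2, SE; edgeR adjusted p = 0.00338) and Nfe2l2, the antioxidant regulator NRF2, by 1.03 ± 0.11 (edgeR adjusted p = 6.35e-04). They were 2 of 17 regulators tested. Of 9 other electron carriers and subunits, 3 were called higher: Gpd2 (0.70 ± 0.12), Sqor (0.77 ± 0.16) and Etfa (0.54 ± 0.12, all SE), which feed electrons toward the quinone pool by routes other than complexes I and II. Dhodh, an enzyme of pyrimidine synthesis that also reduces quinone, was called lower (-0.43 ± 0.12 (SE), edgeR adjusted p = 0.0428). Pdk4 (1.05 ± 0.20) and Pdk2 (0.39 ± 0.11), kinases that inhibit pyruvate dehydrogenase, were the 2 called of 24 genes of the citric acid cycle and pyruvate entry. Gsr (0.54 ± 0.12) and Nnt (0.78 ± 0.18) were the 2 called of 10 antioxidant genes, and Mfn1 (0.58 ± 0.14), a fusion protein of the outer membrane, was the 1 called of 16 genes of mitochondrial dynamics. Timm50 (-0.48 ± 0.12, all SE), of the inner membrane import channel, was the 1 called of 23 import genes. The cytosolic ribosome, as a nuclear family of short and abundant messages, had 9 of 73 genes called lower and a median of -0.42 in the EGFP sort. Of all genes 7.07% were called lower there. In the mCherry sort 0 of the 73 genes were called by edgeR and their median was -0.54. An unadjusted p under 0.05 was found in 14 of the 73, all lower, where 8.87% of all genes had one downward.

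Markers of dividing cells moved in the mCherry sort. They summed to 213 to 294 CPM in mCherry-positive and 583 to 746 CPM in mCherry-negative libraries, with 4 of 6 genes called lower. Of 7 astrocyte markers 1, Gfap, was called higher. Neuronal, oligodendrocyte and microglial markers had 0 called genes of 8, 7 and 6 by edgeR, and 2, 2 and 3 with an unadjusted p under 0.05. Pituitary markers ranged from 6.58 to 5518 CPM within the mCherry-positive group and from 5.76 to 217 CPM within the mCherry-negative group. Of 5 endothelial markers Tek was at 0 in the mCherry-positive group and Cldn5 in the mCherry-negative group. The part of these transcripts in the mitochondrial levels was not tested.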

How the data were processed

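RNA-seq was measured in 12 libraries, 3 in each of 4 groups taken from the labels. The authors deposited counts of reads for each Ensembl gene, as whole numbers without normalization. The reads were processed with cutadapt 1.8, STAR 2.5.2b and HTSeq 0.6.1 on GRCm38, per the submitters' processing notes. Their annotation release, strand setting and read length are not given in the sources used here. Without a strand setting, reads of overlapping genes on opposite strands cannot be told apart.

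Entries that name no gene held 31.4% to 38.2% of counted reads and were left out of library sizes. Of 48709 identifiers, 360 did not match GENCODE M21 and took at most 0.0279% of gene reads. Counts were tested with edgeR 4.0.16 in R 4.3.3 (TMM factors, filterByExpr with a minimum count of 10 and a minimum total of 15, quasi-likelihood test, Benjamini-Hochberg adjustment over all genes). Each sort was fitted on its own 6 samples, and the difference of both effects on all 12. SE is the size of the log2 fold change over the root of the F statistic. Alternatives were other scaling and filters, DESeq2 1.42.0, limma-voom 3.58.1, a replicate block, a shared spread and leaving out each library. The code was tested on simulated data.

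The members, gene lists and comparisons were chosen with earlier results of these data known. Named genes are all mitochondrial members, the Sdh genes, 5 isoform pairs of complex IV, called nuclear members or, where none was called, the up to 4 of lowest p per direction, and up to 3 called genes per further list. Atp5a1, Sdha and Ndufs1 as calls of alternatives, Uqcrc1 and Dhodh as single members of counts, Ndufc2 and Cox8a for their level, Malat1 as the most abundant nuclear RNA, and Cox7c, Atp5g2 and Ndufaf2 for shared sequence were named after their values were seen.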

Additional observations from a re-analysis of the deposited data

Results flagged for a closer look

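In 4 mitochondrially encoded genes the effects of both sorts differed by the test of the difference itself, mCherry effect minus EGFP effect on the log2 scale: 1.35 for mt-Nd4, 1.05 for mt-Cytb, 1.04 for mt-Nd5 and 1.02 for mt-Co1. All 4 were higher in the 3 mCherry-positive libraries than in the 3 mCherry-negative ones and lower in the 3 EGFP-positive libraries than in the 3 EGFP-negative ones. The sorts differ in virus, RNA input and intended cell type, which cannot be told apart.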

How the results depend on the processing

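The direction of the mitochondrial and nuclear medians against each other held in every setting run: the mitochondrial median minus the nuclear one was 0.97 in the mCherry sort (0.75 to 1.17 with 1 library left out), -0.57 in the EGFP sort (-0.63 to -0.39) and 1.40 for the difference (1.16 to 1.62). Counts of called members moved more. In the mCherry sort 0 were called; DESeq2 called 3 higher, and the shared spread of all 12 samples 4 higher and 2 lower. In the EGFP sort 7 were called lower and 0 higher; the shared spread called 1 lower, and leaving out 1 library gave 2 to 14 lower and 0 to 2 higher. For the difference 4 were called; DESeq2 called 7, limma-voom 3 and leaving out 1 library gave 0 to 7. The causes were not tested. Values near 0 changed sign without a call: Sdha in the mCherry sort (0.0103 with DESeq2's size factors or its test, 0.0142 with library totals, 0.00289 with no filter, 0.000818 with a stricter one, -0.12 to 0.12 with 1 library left out) and Sdhb in the EGFP sort (-0.0787 with library totals, -0.0035 with limma-voom, -0.12 to 0.15 with 1 library left out).

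Counts over all genes, higher and lower, were 94 and 114 in the mCherry sort, but 485 and 293 with no filter, 153 and 163 with a stricter filter, 885 and 591 by DESeq2 and 883 and 829 with the shared spread. With 1 library left out they were 0 to 125 and 0 to 87. The EGFP sort gave 1468 and 1154, but 458 and 343 with the shared spread, 1114 and 1691 with library totals, and 644 to 2884 and 480 to 2360 with 1 library left out. For the difference they were 160 and 101, but 483 and 192 with no filter, 582 and 308 by DESeq2, 235 and 60 with library totals, 99 and 96 by limma-voom, and 22 to 405 and 4 to 186 with 1 library left out.

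Replicate numbers were checked on log2 CPM after the group mean of each gene was subtracted. Positive and negative samples of the same number then correlated at 0.13, -0.02 and 0.02 in the mCherry sort. In the EGFP sort they correlated at 0.11, -0.0046 and 0.03. Samples of different number correlated at -0.14 to 0.13 in the mCherry sort and -0.10 to 0.08 in the EGFP sort. The numbers were therefore not taken as pairs. With a replicate block, 0 members were called in the mCherry sort, 7 lower in the EGFP sort and 3 for the difference, and all-gene counts were 188 and 155, 1874 and 1535, and 170 and 123. Members with few reads, such as Cox8b and Cox4i2, have the widest errors at this depth.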

Other observations

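Mitochondrial ribosomal RNA, which is far more abundant in cells than any mitochondrial message, had few reads. mt-Rnr2 had 244 reads over the 12 libraries, between 5 and 61 in each, and mt-Rnr1 had 30. Of 22 mitochondrial transfer RNA genes, mt-Tp had 878 reads, mt-Te 325 and mt-Tq 116, and 14 had 0. mt-Tp lies on the strand of mt-Nd6. It had 147, 154 and 92 reads in mCherry-positive, 74, 91 and 67 in mCherry-negative, 25, 33 and 48 in EGFP-positive and 52, 58 and 37 in EGFP-negative libraries. No gene of this kind was called by edgeR in either sort, with 4 tested in the mCherry and 3 in the EGFP sort and 0 with an unadjusted p under 0.05 in both.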
